A study of Homo sapiens with 60 samples.

Results

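The 8 genes described here are PPARA, which encodes the fatty acid receptor PPAR-alpha, and CPT1A, ACADM, HADHA, FABP1, PLIN2, ANGPTL4 and PDK4, which take part in fatty acid transport, oxidation, storage and fuel choice and are known as PPAR-alpha targets. They were found by symbol through their Ensembl identifiers, and all 8 were among the 60675 genes counted. All are protein-coding, and their positions are given on GRCh38 as annotated in GENCODE 29. RNA was sequenced from HepG2, an established human liver cancer line, after 24 h of exposure to ethanol extracts of digestive herbal medicines, in 60 libraries of 25 groups. Vehicle, DMSO alone (0.1% by the sample label, 2% by the series text), had 3 libraries. Coptidis Rhizoma was given at 280, 56 and 11.2 µg/mL, and Bupleuri Radix at the same 3 doses. Zizyphi Fructus, Citri Unshius Pericarpium, Cimicifugae Rhizoma, Aconiti Lateralis Radix Preparata and the formulas Yijung-tang and Banhasasim-tang were given at 500, 100 and 20 µg/mL. The doses are called high, medium and low. Each dose had 3 libraries for Citri, Cimicifugae, Bupleuri and Aconiti, 2 for Coptidis, Zizyphi and Yijung-tang, and 1 for Banhasasim-tang. By the series text 500 µg/mL was the ceiling, and an extract that inhibited growth below it was started lower, as were Coptidis and Bupleuri. All libraries come from 1 tumour line in culture, each extract is a mixture, and each formula a mixture of several materials.

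PPAR-alpha is a nuclear receptor that binds fatty acids, pairs with the retinoid X receptor and sits on repeated AGGTCA half-sites in the DNA of its target genes. In liver it is best known for raising the capacity to burn fat during fasting. Long fatty acids are carried in the cytosol by FABP1, enter mitochondria through CPT1A and are shortened there by enzymes that include ACADM and HADHA, or are stored in droplets coated by PLIN2. ANGPTL4 is secreted and inhibits lipoprotein lipase, and PDK4 turns off pyruvate dehydrogenase so that glucose carbon is spared. PLIN2, CPT1A and ANGPTL4 also respond to other regulators, so their levels are no direct reading of the receptor.

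Library totals ran from 18015555 to 29549531 counts. Levels are given as CPM, each gene's count relative to its library's TMM-scaled total, and differences as log2 fold changes ± SE from edgeR's quasi-likelihood test, with calls made where the adjusted p over 16675 tested genes was below 0.05. PDK4 did not pass the filter on low counts, so 7 of the 8 genes were tested. Whether replicates came from separate cultures is not in the labels. The p-values therefore speak of variation among these libraries alone, and that variation may be technical. All comparisons with vehicle share its 3 libraries, and the titles put vehicle in a set apart from the extracts, so that set and treatment cannot be told apart there. For Coptidis and Zizyphi the titles name batch D, as for vehicle, and the descriptions batch C, so it is not settled that these libraries share the batch of vehicle. The high and low dose of an extract share a set. Replicate 3 of the Bupleuri low dose stood apart from its group in PPARA and FABP1, and the low-dose library of Banhasasim-tang stood apart from the other 59 libraries in depth, and results that rest on the former are given with and without it. Mitochondrial ribosomal RNA took 2.47 to 2.61% of counts in vehicle, 5.41 to 11.8% with Coptidis, 11.8, 8.01 and 0.485% in the high, medium and low library of Banhasasim-tang, and 2.31 to 3.51% in all others. All 11 hepatocyte markers had counts in every group. Their summed level was 44789 to 45544 CPM in vehicle and 27125 to 27969 CPM at the high dose of Coptidis. It was also below vehicle at the Coptidis medium dose (39170 to 40642 CPM). The same held at the high doses of Bupleuri (39059 to 41293), Yijung-tang (39690 to 40678), Cimicifugae (38284 to 43513) and Aconiti (41036 to 43258). Banhasasim-tang held 37691, 40316 and 39192 CPM from high to low dose, and the Bupleuri low dose ran from 34397 to 47984 CPM. Counts were found for 7 to 9 of 10 markers of blood, vessel, stromal and glial cells, with none from PTPRC. The sums of these other markers were 93.0 to 100 CPM in vehicle, 152 to 154 CPM at the high dose of Coptidis, 105 to 130 CPM at its medium dose and 80.6 to 114 CPM in all other groups. The part of these shifts in the results below was not tested. In such bulk libraries fewer cells expressing a gene and less RNA per cell cannot be told apart.

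In vehicle the 8 genes spanned a wide range of levels. Per kilobase of merged exon (GENCODE 29, all annotated transcripts of a gene joined), HADHA was highest at 81.5 CPM per kilobase, followed by FABP1 at 33.4, PLIN2 at 24.7, ACADM at 14.5, CPT1A at 6.00, PPARA at 4.15, ANGPTL4 at 0.681 and PDK4 at 0.00625. The 3 vehicle libraries of each gene did not overlap those of its neighbour in this order. PDK4 (ENSG00000004799, chr7:95583499-95596491, minus strand), a pyruvate dehydrogenase kinase, had 29 counts in all 60 libraries together, spread over 23 libraries with at most 3 counts each, and 0 counts in the other 37. A floor of 3 counts corresponds to 0.101 to 0.168 CPM in these libraries, and the highest PDK4 level was 0.107 CPM, so no difference of PDK4 between groups was detectable at this depth. Between groups, the highest mean was 13.3-fold the lowest for FABP1, 9.44-fold for ANGPTL4, 8.52-fold for PLIN2, 2.94-fold for CPT1A, 2.34-fold for ACADM, 1.43-fold for PPARA and 1.34-fold for HADHA. The highest ANGPTL4 mean and the lowest ACADM and PLIN2 means were those of the single low-dose library of Banhasasim-tang. Without that library the folds were 3.98 for ANGPTL4, 6.92 for PLIN2 and 1.35 for ACADM, and those of the other 4 genes stayed as they were.

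CPT1A and PLIN2 rose in the high-dose groups of 5 of the 7 replicated extracts. The PLIN2 rises with Cimicifugae and Yijung-tang were small, and their calls were lost under several settings. Wherever the oxidation enzymes ACADM and HADHA passed against vehicle they were lower. At the high dose of Coptidis 6 of the 7 tested genes were called (2 higher, 4 lower), where 67.5% of all tested genes were called (34.5% higher, 33% lower). The medium dose had 5 (2 higher, 3 lower; background 50.7%) and the low dose 3, all lower (33.2%). Bupleuri had 3 called at its high dose (2 higher, 1 lower; 38.9%, of which 19.9% higher and 19.1% lower), 4 at the medium (2 higher, 2 lower; 10.9%) and 2 at the low dose (1 higher, 1 lower; 22.3%). Aconiti had 5 at the high (2 higher, 3 lower; 23.2%, of which 11.2% higher and 12% lower), 5 at the medium (1 higher, 4 lower; 20.9%) and 1 at the low dose, lower (9.9%). Cimicifugae had 3 at the high dose, all higher (22.2%, of which 12.1% higher and 10% lower), and 1 each at the medium (10.7%) and low dose (6.1%), both lower. At the high dose of Cimicifugae DESeq2 also called HADHA, which was lower (−0.08, adjusted p 0.00942). Yijung-tang had 2 at the high dose, both higher (17.3%, of which 9.49% higher and 7.84% lower), and Citri 2 at the high (14.2%, of which 7.73% higher and 6.51% lower) and 1 at the low dose (15.9%), all lower. Several of these counts rest on small differences: leaving out single libraries moved them to between 1 and 2 for the high and the low dose of Citri, between 0 and 1 for the medium and low dose of Cimicifugae, between 2 and 4 for the Bupleuri medium dose, between 1 and 4 for the Bupleuri low dose and between 1 and 3 for the high dose of Yijung-tang. At the high doses of Coptidis and Bupleuri so many genes of the whole table were called that the number of members called says little, and the sizes given next carry the description. The shares of all genes called also moved with single libraries, for example to between 3.89 and 18.6% for the Citri medium dose and between 12.3 and 34.2% for the Bupleuri low dose.

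No member was called by edgeR with Zizyphi at the high, medium or low dose (3.63, 1.93 and 2.79% of all genes called, with 2.07% higher and 1.57% lower at the high dose), with the medium dose of Citri (10.5%) or with the medium (6.25%) and low dose (1.69%) of Yijung-tang. At an unadjusted p under 0.05 these comparisons held 2, 1 and 1 members for Zizyphi from high to low dose, 2 for Citri and 0 for either dose of Yijung-tang. No share of all genes is given at this unadjusted threshold, so these counts cannot be set against a background. DESeq2 called HADHA at the Zizyphi medium dose and the Citri medium dose, and 0 members in the other 4. With no filter on low counts edgeR called FABP1 at the medium dose of Zizyphi and at the medium and low dose of Yijung-tang. Between high and low dose of 1 set, 5 members were called with Coptidis (60.2% of all genes), 5 with Bupleuri (40.2%), 3 with Aconiti (14.6%), 2 with Cimicifugae (7.14%) and 1 with Yijung-tang (7.29%). For Citri (0.78%) and Zizyphi (0.006%) edgeR and DESeq2 called 0 members between high and low dose, and 0 had an unadjusted p under 0.05 with edgeR.

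**Figure D1:**
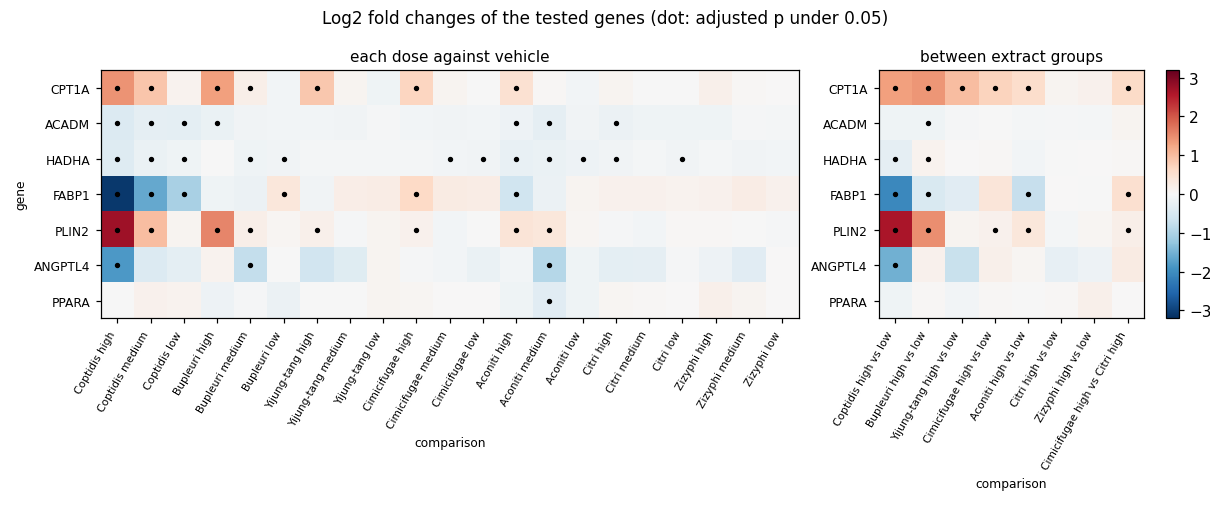
Log2 fold changes of the 7 tested genes (rows) in 21 comparisons with vehicle, which share its 3 libraries, and in 8 comparisons between extract groups (columns); colour gives the log2 fold change and a dot marks an adjusted p under 0.05 by edgeR. CPT1A and PLIN2 are red at the high doses of Coptidis and Bupleuri, FABP1 is blue across Coptidis, and PPARA is pale throughout.

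The stretches of 250 bases before the RefSeq gene starts (GRCh38.p14) are shown for the 3 genes with the clearest dose series, CPT1A, PLIN2 and FABP1, because CPT1A and PLIN2 moved together while FABP1 did not. Capitals in FABP1 mark a match, with 2 mismatches and on the opposite strand, to the direct repeat AGGTCANAGGTCA to which PPAR-alpha and its partner are known to bind. Capitals in PLIN2 mark an E-box, CACGTG, and the CPT1A stretch held none of the motifs searched.
CPT1A, chr11:68844278-68844527, minus strand: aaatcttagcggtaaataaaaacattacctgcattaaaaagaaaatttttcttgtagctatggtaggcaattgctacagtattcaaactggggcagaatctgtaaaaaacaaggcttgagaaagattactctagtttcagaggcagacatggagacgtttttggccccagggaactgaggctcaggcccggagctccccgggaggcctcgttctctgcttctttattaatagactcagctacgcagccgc
PLIN2, chr9:19127493-19127742, minus strand: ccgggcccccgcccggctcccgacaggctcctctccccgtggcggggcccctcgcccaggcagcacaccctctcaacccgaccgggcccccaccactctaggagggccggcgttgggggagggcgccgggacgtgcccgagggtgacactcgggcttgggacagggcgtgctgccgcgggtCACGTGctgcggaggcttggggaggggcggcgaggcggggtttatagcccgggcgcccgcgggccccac
FABP1, chr2:88128063-88128312, minus strand: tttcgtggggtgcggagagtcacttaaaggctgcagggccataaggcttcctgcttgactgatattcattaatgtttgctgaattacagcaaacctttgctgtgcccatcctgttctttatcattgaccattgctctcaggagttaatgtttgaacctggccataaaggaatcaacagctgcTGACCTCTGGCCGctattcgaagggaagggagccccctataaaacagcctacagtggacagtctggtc
The FABP1 match spans bases 68 to 56 before the start and includes an exact AGGTCA half-site at bases 68 to 63, and the PLIN2 E-box lies 69 to 64 bases before its start. By GENCODE 29 the PLIN2 stretch lies wholly inside the bounds of its gene, since other annotated transcripts begin further upstream, and the CPT1A and FABP1 stretches overlap the bounds of theirs in part. All 8 genes had a RefSeq window, PPARA in 2 versions (9 windows). Both strands were searched for the direct repeat with up to 2 mismatches, the exact half-site AGGTCA, the antioxidant element core TGACNNNGC and the E-box CACGTG. Among the 8 genes, FABP1 alone held the direct repeat and the half-site, which overlap, PLIN2 alone held the E-box, and no window held the antioxidant core. Of 35116 such windows in the table, 2.57% held the direct repeat, 12.1% the half-site, 10.9% the antioxidant core and 6.34% the E-box. A match is a string of letters and not a shown binding site, and known PPAR-alpha sites also lie outside these windows. The motifs were settled after looking at these windows, so which gene held which motif is description only.

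CPT1A (ENSG00000110090, chr11:68754620-68844410, minus strand), the carnitine palmitoyltransferase that admits long-chain fatty acids to mitochondria, rose at the high dose of 5 extracts. Its level was 39.2, 38.4 and 40.4 CPM in the vehicle libraries. At the high dose of Coptidis it was 106 and 107 CPM, and at the high dose of Bupleuri 96.3, 97.3 and 98.1 CPM. All 5 of these libraries lay above every vehicle library, with log2 fold changes of 1.44 ± 0.06 (edgeR adjusted p 5.38e-24) and 1.30 ± 0.06 (1.71e-22). Yijung-tang followed at 74.0 and 67.3 CPM (0.85 ± 0.06, edgeR adjusted p 9.07e-14), Cimicifugae at 61.8, 64.3 and 65.5 CPM (0.70 ± 0.06, 1.71e-12) and Aconiti at 59.4, 54.2 and 51.2 CPM (0.48 ± 0.06, 3.05e-08). None of these overlapped vehicle. With Citri the high-dose libraries stood at 39.6, 44.8 and 41.5 CPM and with Zizyphi at 42.8 and 45.4 CPM, and neither group passed (0.09 ± 0.06 and 0.16 ± 0.07, edgeR adjusted p 0.34 and 0.175).

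At the medium dose CPT1A was called with Coptidis and Bupleuri. Coptidis raised it to 70.9 and 72.7 CPM (log2 fold change 0.88 ± 0.06, edgeR adjusted p 1.21e-15). With Bupleuri the medium-dose libraries held 47.1, 44.9 and 42.5 CPM (0.19 ± 0.06, edgeR adjusted p 0.0337), a call lost without any single vehicle library or without medium-dose replicate 1 or 2 (0.0502 to 0.167), and with no filter on low counts (0.0593). At the low doses CPT1A ranged from 32.4 to 43.9 CPM over all replicated groups and no group was called. The Bupleuri low dose stood at −0.10 against vehicle and passed without its replicate 1 (−0.17, edgeR adjusted p 0.0315). Without the Bupleuri low-dose library that stood apart from its group, the value was −0.02 (edgeR adjusted p 0.888). Ordered by mean, Coptidis high stood above Bupleuri high without overlap, then came Coptidis medium and Yijung-tang high, whose libraries overlapped, then Cimicifugae high and Aconiti high, which did not. Within a set, CPT1A was higher at the high than at the low dose with Bupleuri (1.40 ± 0.06), Coptidis (1.32 ± 0.07), Yijung-tang (0.98 ± 0.07), Cimicifugae (0.71 ± 0.06) and Aconiti (0.57 ± 0.06), with edgeR adjusted p of 5.2e-10 or less. These 5 calls held whichever library was left out.

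PLIN2 (ENSG00000147872, chr9:19108375-19149290, minus strand), perilipin 2, the coat protein of lipid droplets that is made when a cell stores fat, showed the largest rise of the set. In vehicle it was at 124, 124 and 129 CPM. At the high dose of Coptidis it reached 797 and 844 CPM, at the medium dose 241 and 252 CPM, and at the low dose 130 and 136 CPM. The high and medium libraries lay far above vehicle, at log2 fold changes of 2.71 ± 0.05 (6.54-fold, edgeR adjusted p 9.53e-38) and 0.98 ± 0.05 (9.15e-21), while the low dose did not pass (0.09 ± 0.05, 0.215). With Bupleuri the high-dose libraries held 389, 363 and 357 CPM and the medium-dose ones 147, 141 and 140 CPM, all above vehicle (1.56 ± 0.05 and 0.18 ± 0.05, edgeR adjusted p 1.23e-28 and 0.00671). With Aconiti the medium dose, at 171, 158 and 154 CPM, overlapped the high dose, at 173, 169 and 160 CPM. Both passed, at 0.36 ± 0.05 and 0.41 ± 0.05 (edgeR adjusted p 9.18e-08 and 5.09e-09), while its low dose, at 131, 133 and 128 CPM, did not (0.05 ± 0.05, 0.559).

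Smaller PLIN2 rises at the high dose of Cimicifugae (135, 142 and 141 CPM) and of Yijung-tang (141 and 141 CPM) also lay above every vehicle library. Their log2 fold changes were 0.15 ± 0.05 (edgeR adjusted p 0.02) and 0.17 ± 0.05 (0.0157). The Cimicifugae call was lost when vehicle replicate 1 or 2, or replicate 2 or 3 of the extract, was left out (0.0658 to 0.0781), and the Yijung-tang call when vehicle replicate 1 or 2, or either library of the formula, was left out (0.0518 to 0.0944). With no filter on low counts neither passed (0.0889 and 0.0652). PLIN2 did not pass at any dose of Citri or Zizyphi, where libraries ranged from 112 to 132 CPM. Between high and low dose PLIN2 was higher with Coptidis (2.62 ± 0.06), Bupleuri (1.5 ± 0.05) and Aconiti (0.36 ± 0.05), with edgeR adjusted p of 1.13e-07 or less. With Cimicifugae it was also higher (0.15 ± 0.05, edgeR adjusted p 0.0463), but this call was lost with the replicate number as a block (0.0505), with DESeq2's size factors (0.0593), with no filter (0.275) and without any of 5 of its 6 libraries (0.106 to 0.164). With Yijung-tang the high-minus-low difference of PLIN2 was 0.10 and did not pass.

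FABP1 (ENSG00000163586, chr2:88122982-88128116, minus strand), the liver fatty acid binding protein that carries fatty acids in the hepatocyte cytosol, moved in opposite directions with different extracts. It was at 79.3, 80.3 and 87.8 CPM in vehicle. With Coptidis it stood at 46.4 and 33.6 CPM at the low, 16.1 and 36.6 CPM at the medium and 7.90 and 11.4 CPM at the high dose. All 6 libraries were below vehicle and the low and medium dose overlapped, with log2 fold changes of −1.03 ± 0.16, −1.63 ± 0.16 and −3.09 ± 0.19 (8.52-fold lower at the high dose). The edgeR adjusted p was 2.41e-06, 6.53e-11 and 2.61e-17 in that order. Among the 11 hepatocyte markers, 27125 to 27969 CPM in sum remained at the high dose of Coptidis against 44789 to 45544 CPM in vehicle, so the marker sum was lower beside FABP1, by a smaller factor, and its part in the FABP1 result was not tested.

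With Aconiti at its high dose FABP1 was at 53.0, 56.1 and 49.5 CPM, below every vehicle library (−0.64 ± 0.13, edgeR adjusted p 0.000415). With Cimicifugae at its high dose it was at 128, 129 and 127 CPM, above every vehicle library (0.63 ± 0.13, edgeR adjusted p 0.000374). The hepatocyte marker sum at these doses was 41036 to 43258 CPM with Aconiti and 38284 to 43513 CPM with Cimicifugae, below vehicle in both. Within a set FABP1 was lower at the high than at the low dose with Coptidis (−2.06 ± 0.21, edgeR adjusted p 3.48e-11), with Aconiti (−0.73 ± 0.13, 9.93e-05) and with Bupleuri (−0.50 ± 0.13, 0.00228). Without replicate 3 of the Bupleuri low dose the Bupleuri value was −0.33 (edgeR adjusted p 0.0377). With Cimicifugae the difference of 0.39 ± 0.13 did not pass (edgeR adjusted p 0.0605) and passed once replicate 3 of the Bupleuri low dose was left out of the shared estimate of the spread (0.0154), or with no filter on low counts (7.5e-08). With no filter the Yijung-tang difference of −0.35 passed too (edgeR adjusted p 0.000428, against 0.222 with the filter).

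The Bupleuri low dose had FABP1 at 97.7, 89.8 and 129 CPM, all above vehicle. The call of 0.35 ± 0.13 (edgeR adjusted p 0.0493) rested on replicate 3, the highest library, and without it the value was 0.19 (0.376). It was also lost without any single vehicle library (0.0616 to 0.141). The high dose of Bupleuri, at 80.1, 69.5 and 74.4 CPM, overlapped vehicle and did not pass (−0.15 ± 0.13, edgeR adjusted p 0.416). In Citri and Zizyphi all FABP1 libraries lay between 82.1 and 99.8 CPM, and edgeR called no dose with the filter on low counts. With no filter edgeR called FABP1 higher in 5 further comparisons with vehicle, at the medium dose of Zizyphi (0.26, adjusted p 0.0146), the medium and low dose of Cimicifugae (0.27 and 0.26, 0.00108 and 0.00266) and the medium and low dose of Yijung-tang (0.23 and 0.24, 0.0306 and 0.0328).

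**Figure D2:**
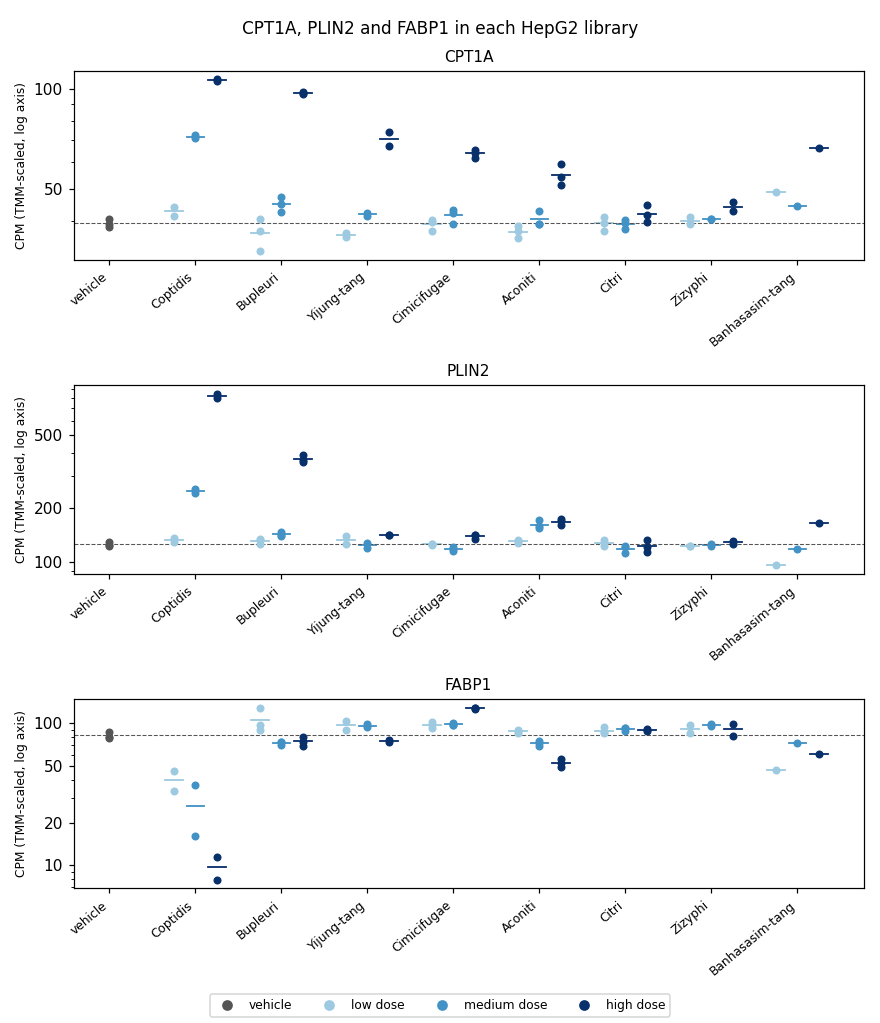
TMM-scaled CPM (vertical log axes) of CPT1A, PLIN2 and FABP1 in each of the 60 libraries by treatment (horizontal axis), with points for libraries coloured by dose, bars for group means and a dashed line at the vehicle mean. CPT1A and PLIN2 climb with dose for Coptidis and Bupleuri, whereas FABP1 falls from 79.3 to 87.8 CPM in vehicle to 7.90 and 11.4 CPM at the high dose of Coptidis and is highest at the high dose of Cimicifugae.

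ACADM (ENSG00000117054, chr1:75724347-75787575, plus strand), the medium-chain acyl-CoA dehydrogenase of the beta-oxidation spiral, was below the vehicle mean in all 24 extract groups. The vehicle libraries held 69.7, 69.5 and 68.6 CPM. Coptidis gave the lowest replicated levels, 50.1 and 52.3 CPM at the high, 49.5 and 63.7 CPM at the medium and 56.8 and 55.0 CPM at the low dose. All 6 were below vehicle, at log2 fold changes of −0.43 ± 0.06 (edgeR adjusted p 7.81e-08), −0.28 ± 0.06 (0.000174) and −0.30 ± 0.06 (0.000153). Without medium-dose replicate 2 the medium-dose value was −0.12 and no longer called (0.154). Lower levels were also called at the high (63.2, 60.6 and 60.7 CPM) and medium dose (58.2, 53.5 and 58.9 CPM) of Aconiti, the high dose of Bupleuri (59.2, 61.5 and 57.6 CPM) and the high dose of Citri (62.0, 59.1 and 61.1 CPM). The log2 fold changes were −0.17, −0.28, −0.22 and −0.19, each ± 0.05, and none of these groups overlapped vehicle. The calls for the high dose of Aconiti (edgeR adjusted p 0.0185) and Citri (0.0163) were lost in several leave-one-out fits, at 0.0529 to 0.0597 for Aconiti (vehicle replicate 1, or replicate 2 or 3 of the extract, left out) and at 0.0594 and 0.0687 for Citri (vehicle replicate 1, or replicate 2 of the extract, left out), and with no filter (0.0911 and 0.0868). Between high and low dose ACADM passed only with Bupleuri (−0.15 ± 0.05, edgeR adjusted p 0.0293), where the value without low-dose replicate 3 was −0.11 (0.135) and the call was also lost without high-dose replicate 1 or 3 (0.0713 and 0.114) and with no filter (0.167).

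HADHA (ENSG00000084754, chr2:26190635-26244726, minus strand), the alpha subunit of the mitochondrial trifunctional protein, which hydrates and oxidises long-chain acyl-CoA, was also below the vehicle mean in all 24 extract groups, by small amounts in most. Vehicle held 352, 361 and 360 CPM. The lowest libraries were 265 and 267 CPM at the high dose of Coptidis (−0.42 ± 0.04, edgeR adjusted p 1.42e-14), followed by 301, 307 and 307 CPM at the high (−0.23 ± 0.03, 2.06e-07) and 306, 301 and 314 CPM at the medium dose of Aconiti (−0.22 ± 0.03, 6.32e-07). In total HADHA was called lower in 12 of 21 comparisons with vehicle, which share its 3 libraries. Apart from those just given, the other 9 called values ran from −0.20 at the medium dose of Coptidis to −0.10 at the medium dose of Cimicifugae. With no filter on low counts 4 of these 12 calls remained, those of the high and medium doses of Coptidis and Aconiti, and the other 8 had edgeR adjusted p of 0.14 to 0.674. Values not called ran from −0.10 at the medium dose of Zizyphi to −0.005 at the high dose of Bupleuri. Among them DESeq2 called Cimicifugae high (−0.08, adjusted p 0.00942), Zizyphi medium (0.018) and Citri medium (0.0344). Without replicate 3 of the Bupleuri low dose edgeR called Cimicifugae high (adjusted p 0.0351) and Zizyphi medium (0.0453). Within sets, where doses can be compared without vehicle, edgeR called HADHA lower at the high dose with Coptidis (−0.28 ± 0.04, adjusted p 1.6e-08) and higher with Bupleuri, at 362, 348 and 360 against 328, 336 and 332 CPM (0.10 ± 0.03, 0.0075). The Bupleuri call was lost with no filter (adjusted p 0.189). With Aconiti the value of −0.08 did not pass (edgeR adjusted p 0.0847), but did with DESeq2 (0.00542) and without replicate 3 of the Bupleuri low dose (0.0288). The small calls at the medium and low dose of Cimicifugae (−0.10 and −0.11, edgeR adjusted p 0.0322 and 0.0317) were each lost without any single vehicle library, and without most single libraries of their own groups (0.0543 to 0.143 over both doses).

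ANGPTL4 (ENSG00000167772, chr19:8363289-8374373, plus strand), the secreted inhibitor of lipoprotein lipase, was low throughout, so its values rest on few counts. Vehicle held 33, 45 and 37 counts (1.36, 1.95 and 1.76 CPM). Coptidis at its high dose left 8 and 10 counts (0.416 and 0.511 CPM), below every vehicle library (log2 fold change −1.85 ± 0.29, edgeR adjusted p 2.81e-07). At the medium dose Coptidis stood at 1.36 and 1.13 CPM and at the low dose at 1.21 and 1.55 CPM, and neither passed (−0.43 ± 0.23 and −0.30 ± 0.22, edgeR adjusted p 0.117 and 0.33). The medium doses of Aconiti (1.04, 0.938 and 0.685 CPM) and Bupleuri (1.32, 0.935 and 0.710 CPM) were lower than vehicle, while the high doses of both extracts overlapped it. Their medium-dose values were −0.92 ± 0.21 (edgeR adjusted p 0.000894) and −0.77 ± 0.20 (0.00974), and the Bupleuri call was lost without vehicle replicate 2 (0.0764) or medium-dose replicate 3 (0.102). With Yijung-tang at its high dose ANGPTL4 was at 0.887 and 1.31 CPM, below vehicle, and did not pass (−0.61 ± 0.23, edgeR adjusted p 0.0566), but passed without vehicle replicate 1 (0.0314) or without replicate 3 of the Bupleuri low dose (0.0452). Between high and low dose ANGPTL4 was called with Coptidis alone (−1.55 ± 0.32, edgeR adjusted p 4.73e-05).

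PPARA (ENSG00000186951, chr22:46150521-46243756, plus strand), the receptor gene itself, differed little between groups. Vehicle held 53.4, 52.0 and 59.2 CPM, and the high dose of Coptidis 54.7 and 52.9 CPM, within the vehicle range. The log2 fold change there was −0.02 with a 95% interval from −0.27 to 0.22, while CPT1A and PLIN2 rose and FABP1 fell in the same libraries. One of 21 comparisons with vehicle was called, the medium dose of Aconiti at 43.2, 42.4 and 42.4 CPM (−0.36 ± 0.11, edgeR adjusted p 0.0169), and this call was lost without vehicle replicate 3 (0.0885). Its high dose, at 48.2, 49.7 and 51.0 CPM, was also below vehicle without passing (−0.14 ± 0.11, edgeR adjusted p 0.386). The Bupleuri low dose held 58.8, 55.7 and 29.6 CPM, and replicate 3, the lowest PPARA level of all 60 libraries, widened the spread of PPARA in every comparison. Without that library the high dose of Bupleuri, at 51.1, 48.5 and 48.7 CPM, was called lower than vehicle (−0.15, edgeR adjusted p 0.0163) and lower than its low dose (−0.22, 0.00254), as was the high dose of Aconiti against vehicle (−0.15, 0.0288), while the medium dose of Coptidis, at 63.0 and 57.9 CPM, was called higher (0.15, 0.031). With it, between high and low dose, PPARA passed in none of 7 extracts.

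**Figure D3:**
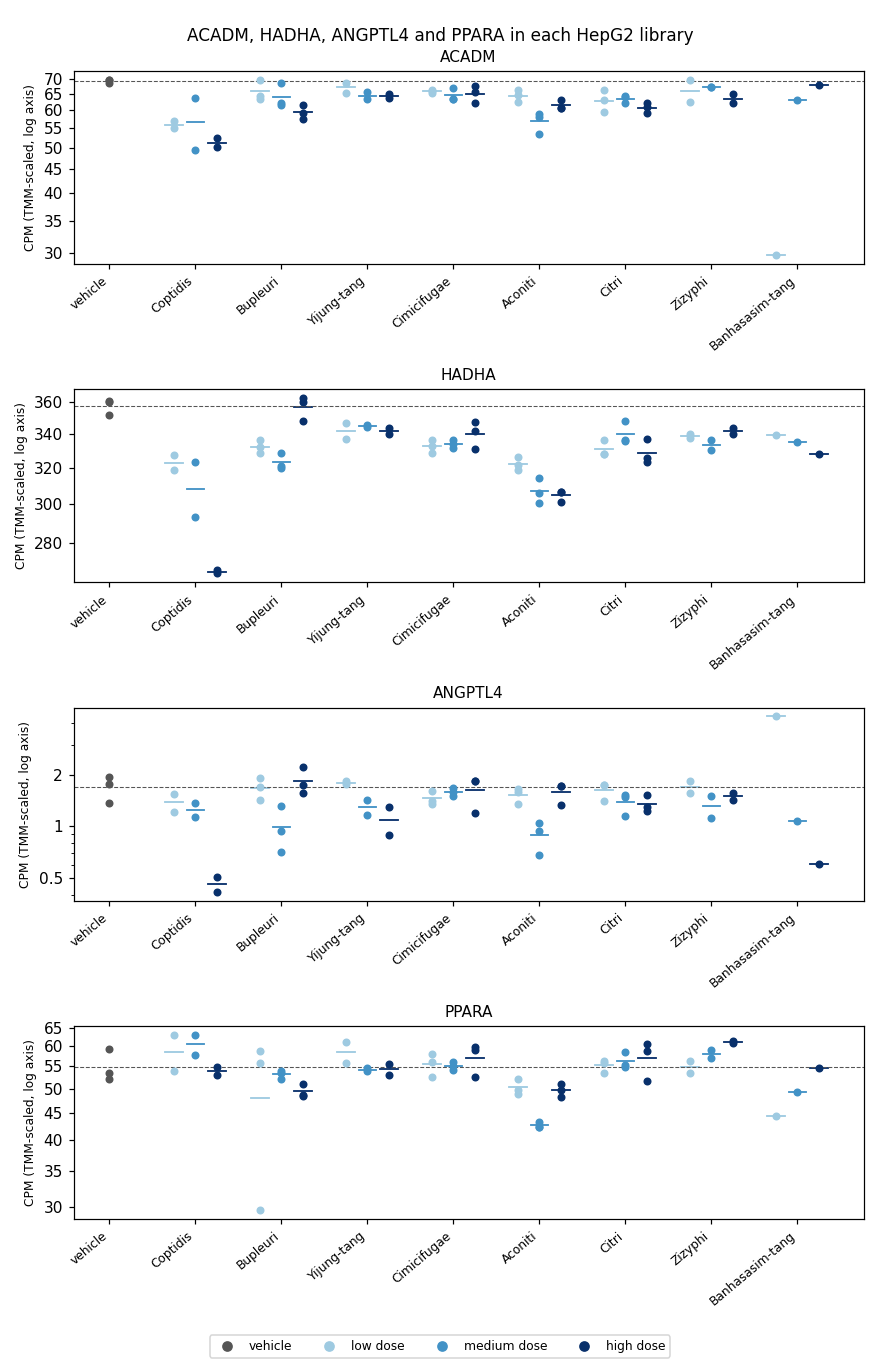
TMM-scaled CPM (vertical log axes, each panel with its own range) of ACADM, HADHA, ANGPTL4 and PPARA in each library by treatment, with points coloured by dose, bars for group means and a dashed line at the vehicle mean. All extract group means of ACADM and HADHA lie below the dashed line, ANGPTL4 is lowest at the high dose of Coptidis, and replicate 3 of the Bupleuri low dose is the lowest PPARA library at 29.6 CPM.

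Cimicifugae and Citri were given at equal doses in 1 set, which allowed a comparison that does not use vehicle. At 500 µg/mL 3 of the 7 tested genes were higher with Cimicifugae than with Citri, where 4.07% of all genes were called. CPT1A was at 61.8, 64.3 and 65.5 against 39.6, 44.8 and 41.5 CPM (0.60 ± 0.06, edgeR adjusted p 2.2e-10). FABP1 was at 128, 129 and 127 against 91.5, 90.3 and 89.0 CPM (0.50 ± 0.13, edgeR adjusted p 0.0157) and PLIN2 at 135, 142 and 141 against 115, 121 and 132 CPM (0.18 ± 0.05, 0.0154). The groups overlapped in none of the 3 genes. The CPT1A call held whichever library was left out, whereas that of FABP1 was lost without Citri replicate 1, 2 or 3 or Cimicifugae replicate 1 or 2 (0.05 to 0.0696) and that of PLIN2 without Citri replicate 1 or 2 or Cimicifugae replicate 2 or 3 (0.0695 to 0.203) and with no filter (0.128).

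Coptidis and Bupleuri shared their 3 doses but not their set, so their differences between high and low dose were compared, a contrast added after the data had been seen. CPT1A rose by like amounts, 1.32 with Coptidis and 1.40 with Bupleuri, and the difference of 0.09 ± 0.09 (95% interval −0.09 to 0.27) did not pass (edgeR adjusted p 0.481). PLIN2 rose more with Coptidis, with a difference of −1.12 ± 0.07 for Bupleuri minus Coptidis (edgeR adjusted p 3e-17). FABP1 fell more with Coptidis (1.57 ± 0.25, edgeR adjusted p 1.63e-06), and ANGPTL4 (1.69 ± 0.37, 0.000206) and HADHA (0.38 ± 0.05, 1.01e-08) also differed. These 4 genes were thus called of 7, against 44% of all genes in this contrast. In the same contrast for Cimicifugae minus Citri, CPT1A alone of the 7 passed (0.61 ± 0.08, edgeR adjusted p 2.99e-06; 1.33% of all genes called).

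Banhasasim-tang had 1 library per dose, so its values carry no test, and intervals for its levels cover counting error only. CPT1A was at 66.4 CPM (exact 95% Poisson interval 63.3 to 69.7) at the high, 44.5 at the medium and 48.7 CPM at the low dose, all above the vehicle libraries, with log2 ratios to the vehicle mean of 0.75, 0.18 and 0.31. PLIN2 was above the vehicle range at the high dose only, at 164 CPM (log2 ratio 0.39), and FABP1 was below it at all 3 doses, at 60.5, 72.8 and 47.3 CPM. Past 1.5-fold were CPT1A and ANGPTL4 at the high dose, where 14.7% of all genes were, and ANGPTL4 alone at the medium dose (10.2%). The low-dose library had ACADM, ANGPTL4 and FABP1 past 1.5-fold, at log2 ratios of −1.22, 1.35 and −0.80. That library, however, had the lowest depth of all, with 0.485% of its counts from mitochondrial ribosomal RNA, and 61.6% of all genes lay past 1.5-fold in it. ANGPTL4 ran from 0.605 CPM (15 counts) at the high to 1.07 at the medium and 4.38 CPM (78 counts) at the low dose, the last being its highest level in any library.

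The wider pathway was read from lists chosen with earlier results of these data known, and is described by counts of genes called by edgeR over all genes. At the high dose of Coptidis, where 67.5% of all genes were called, 10 of 14 tested genes of mitochondrial beta-oxidation fell and 2 rose (median log2 fold change −0.50), and 8 of 11 genes of peroxisomal oxidation fell and 2 rose (−0.89), beside a median of 0.00 over all genes. The mitochondrial falls included HADH, the short-chain hydroxyacyl-CoA dehydrogenase (−1.96 ± 0.08), and SLC25A20, the acylcarnitine carrier that acts after CPT1A (−1.11 ± 0.10), while ETFB, an electron transfer flavoprotein subunit, rose (1.36 ± 0.12). EHHADH, the peroxisomal bifunctional enzyme, fell by 2.06 on the log2 scale. The rise of CPT1A in these libraries thus stood beside lower levels of most of the enzymes that follow it. In the list of lipid droplet and lipolysis genes, which leaves out PLIN2, 6 of 11 fell and 4 rose, with PNPLA3, a lipase of droplets, at −3.25 ± 0.12 and DGAT1, which makes triglyceride, at −2.15 ± 0.10. Of 9 genes of fatty acid uptake and activation 3 rose, among them the acyl-CoA synthetase ACSL5 (2.33 ± 0.05), and 6 fell, among them the acyl-CoA binding protein DBI (−2.11 ± 0.11). Of 6 genes of pyruvate dehydrogenase control 5 fell, PDK3 (−1.35 ± 0.13) and PDK2 (−0.93 ± 0.07) among them, and the activating phosphatase PDP1 rose (2.75 ± 0.09). Of 4 genes of ketogenesis 3 fell and 1 rose, and of 4 tested genes of the ANGPTL4 family and its lipases 3 fell, including the hepatic lipase LIPC (−1.26 ± 0.07).

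Other genes known as PPAR-alpha targets, a list of 15 of which 13 were tested, moved by extract. At the high dose of Coptidis 3 rose and 8 fell (median −0.42). With Bupleuri 9 rose and 2 fell (median 0.32; 38.9% of all genes called), with Aconiti 9 rose and 1 fell (0.36; 23.2%), with Cimicifugae 8 rose and 1 fell (0.37; 22.2%) and with Yijung-tang 7 rose and 1 fell (0.30; 17.3%), always against vehicle. With Citri 3 rose and 1 fell (14.2%), and with Zizyphi 1 rose (3.63%). Between high and low dose 5 were higher and 5 lower for Bupleuri (40.2% of all genes called), 5 and 1 for Aconiti (14.6%), 4 and 0 for Cimicifugae (7.14%), 3 and 1 for Yijung-tang (7.29%), 3 and 7 for Coptidis (60.2%), 1 and 0 for Citri (0.78%) and 0 for Zizyphi (0.006%). AQP3, a channel for water and glycerol, was higher than vehicle at the high dose of 6 extracts, from 0.41 ± 0.14 with Citri through 1.02 with Aconiti, 1.17 with Cimicifugae, 1.5 with Yijung-tang and 2.71 ± 0.11 with Bupleuri to 8.34 ± 0.11 with Coptidis. VNN1, the pantetheinase vanin, rose by 3.87 with Coptidis, 1.31 with Bupleuri, 1.26 with Yijung-tang, 0.97 with Cimicifugae and 0.52 with Aconiti. Other genes of this list with large changes at the high dose were lower than vehicle. They were CYP4F2 with Coptidis (−2.61 ± 0.24) and TXNIP with Yijung-tang (−0.89 ± 0.07) and Citri (−0.29 ± 0.06).

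Among the mitochondrial enzymes the very long-chain dehydrogenase ACADVL rose with Bupleuri (0.68 ± 0.05), Yijung-tang (0.63 ± 0.06), Cimicifugae (0.41 ± 0.05), Aconiti (0.25 ± 0.05) and Citri (0.19 ± 0.05), whereas ACADM did not rise with any of them. The list as a whole had 3 genes higher and 4 lower of 14 with Bupleuri (38.9% of all genes called), 3 and 1 with Cimicifugae (22.2%), 2 and 2 with Aconiti (23.2%), 2 and 1 with Yijung-tang (17.3%), 1 and 2 with Citri (14.2%), and 0 with Zizyphi (3.63%). Among 13 receptors and coregulators 8 rose and 3 fell at the high dose of Coptidis (median 0.57; 67.5% of all genes called), with PPARD (1.69 ± 0.09) and PPARG (1.65 ± 0.09), the other PPAR genes, higher while PPARA stood at −0.02. LPIN1, a coactivator and phosphatidate phosphatase, rose with Bupleuri (1.09 ± 0.05), and ESRRA, the estrogen-related receptor alpha that drives oxidative genes, rose with Bupleuri (0.67 ± 0.08), Aconiti (0.53 ± 0.09), Cimicifugae (0.46 ± 0.08), Yijung-tang (0.40 ± 0.10), Citri (0.36 ± 0.09) and Coptidis (1.08 ± 0.09).

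**Figure D4:**
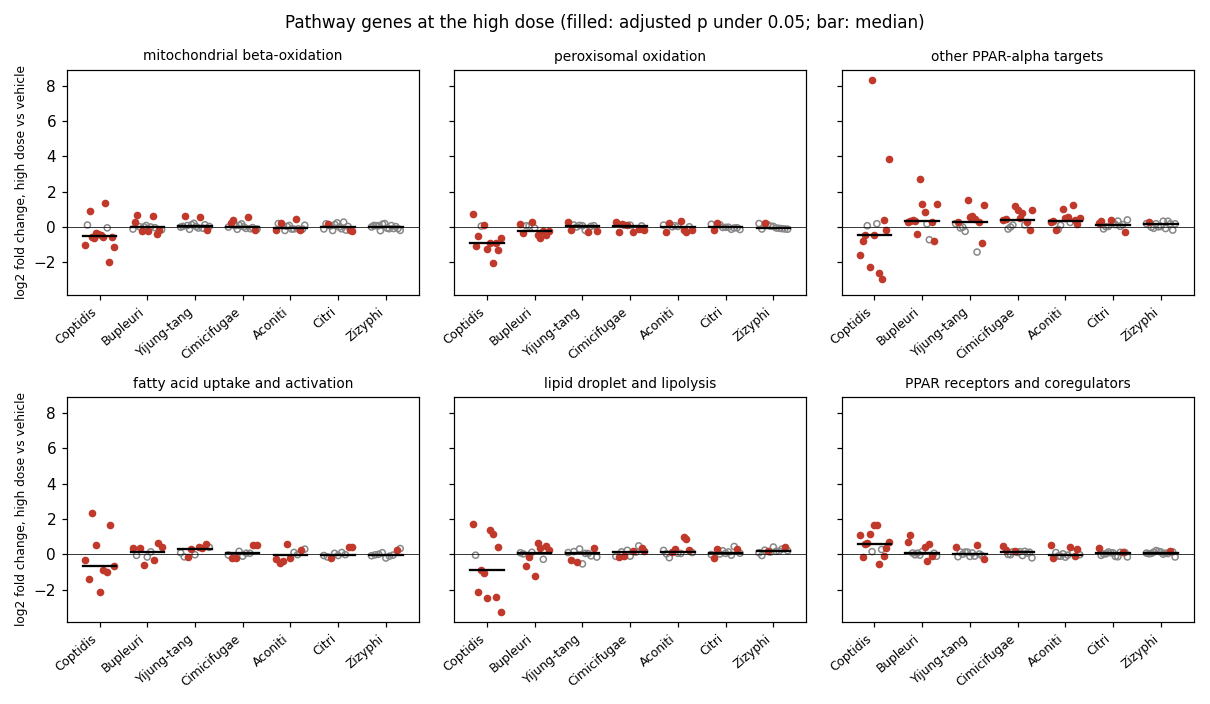
Log2 fold changes at the high dose against vehicle (vertical axis) of the tested genes of 6 pathway lists (panels) for 7 extracts (horizontal axis); filled points passed an adjusted p under 0.05 by edgeR, open points did not, and bars are list medians. Coptidis spreads widest, with medians of −0.50 and −0.89 for mitochondrial and peroxisomal oxidation, and the other PPAR-alpha targets have positive medians with Bupleuri, Aconiti, Cimicifugae and Yijung-tang.

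Patterns over the 25 groups were compared by Pearson correlation of mean log2 CPM, as a description with groups sharing sets and vehicle. The pair of members most alike was CPT1A and PLIN2 (r 0.82, and 0.72 over the 22 groups without Coptidis). FABP1 ran against PLIN2 (r −0.76) and with HADHA (0.79), but without Coptidis these were −0.16 and 0.32, so both rested on that extract. PPARA had r of −0.01 with PLIN2 and 0.02 with CPT1A. Among genes averaging 5 CPM or more, CPT1A was most like the export pump ABCC2 and the ganglioside enzyme B4GALNT1 (r 0.95 each), PLIN2 most like the phosphatase DUSP1 (0.97) and GABARAPL1 of the autophagy machinery (0.96), and ACADM most like DLD (0.98), a dehydrogenase subunit, and SAR1B (0.97). FABP1 was most like CETN2 (0.97) and LGALS2 (0.96), HADHA like CPPED1 (0.90) and NEK6 (0.87), ANGPTL4 like MISP3 (0.89) and BORCS6 (0.88), and PPARA like APBB2 (0.82) and ATP8B1 (0.73). Without Coptidis the values stayed at 0.94 for both partners of CPT1A and 0.98 for both of ACADM, and dropped to 0.75 and 0.59 for those of HADHA and to 0.74 for LGALS2 with FABP1. Both sets of groups held the single low-dose library of Banhasasim-tang. ACADM was at 29.6 CPM there, against means of 51.2 CPM or more in other groups, and ANGPTL4 at 4.38 CPM, against at most 1.85 CPM. Correlations without that library were not computed, so those of ACADM and ANGPTL4 may rest on it.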

How the data were processed

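Values were the authors' deposited expected counts per gene for HepG2 RNA-seq (100 bp paired reads). Tools listed in the submitters' processing notes are RSEM 1.3.3, STAR 2.7.3a, Trim Galore 0.6.5 and FastQC 0.11.9, with GRCh38 as build; which annotation was counted is not given in the sources used. Of 267 columns 60 were mapped to labelled libraries and 207 were not used. Expected counts (8.75% of values not whole) were rounded.

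The main test was edgeR 4.0.16 (R 4.3.3, quasi-likelihood, robust, TMM scaling, filterByExpr) on 57 libraries of 22 replicated groups (35 residual degrees of freedom), with Benjamini-Hochberg adjustment within each of 29 comparisons; 44000 genes were left out as too low. An SE is the absolute log2 fold change over the square root of F, an approximation, and 95% intervals are normal. A simulation of Cimicifugae high against vehicle over 16675 genes recovered 87% of 1.5-fold and 100% of 2-fold changes, with 8 false calls. It gave every gene the same spread, put unchanged genes at vehicle levels in all groups and held no outlying library. Its figures therefore need not hold for the real libraries. Alternatives were DESeq2 1.42.0, its size factors, no filter, a replicate block and leaving out each library. Every replicate pair differed by more than sampling noise, by far the most in the Bupleuri low dose (chi-squared per degree of freedom up to 92.4).

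The 8 genes and the pathway lists were chosen with earlier results of these data known. Named list genes were up to 3 called genes per list and extract with the largest change at the high dose (mean at least 1 CPM), given for other extracts too. Genes alike in pattern were the 2 with the highest r per member. The 4 promoter motifs were settled after looking at the windows. Among comparisons with 3 same-numbered pairs, replicates deviated together (every r over 0.1) for Cimicifugae high against Citri high (r 0.142 to 0.356) and no other. With 2 pairs, r between high and low dose was 0.25 for Coptidis, 0.494 for Zizyphi and 0.181 for Yijung-tang.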

Additional observations from a re-analysis of the deposited data

Results flagged for a closer look

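Where the change from low to high dose was compared between 2 extracts given at equal doses, 5 values passed edgeR's test of that difference. At the same threshold 1.33% of all genes passed for Cimicifugae minus Citri and 44% for Bupleuri minus Coptidis. The contrasts were added after the data had been seen. For Cimicifugae minus Citri, which share a set, the log2 difference of CPT1A was 0.61 ± 0.08 (2.99e-06 adjusted, edgeR), from a high-minus-low difference of 0.71 with Cimicifugae and 0.09 with Citri. For Bupleuri minus Coptidis, which come from different sets, PLIN2 differed by −1.12 ± 0.07 (1.5 against 2.62), ANGPTL4 by 1.69 ± 0.37 (0.14 against −1.55), HADHA by 0.38 ± 0.05 (0.10 against −0.28) and FABP1 by 1.57 ± 0.25 (−0.50 against −2.06). The HADHA rise with Bupleuri was called with the filter on low counts (adjusted p 0.0075) and not without it (0.189). Without replicate 3 of the Bupleuri low dose these 4 differences were −1.10, 1.71, 0.39 and 1.75, with edgeR adjusted p of 0.000271 or less, and the CPT1A difference was 0.61. The high-minus-low value of FABP1 with Bupleuri was then −0.33 in place of −0.50. Mitochondrial ribosomal RNA took 5.41 to 5.68% of counts at the high and 11.6 to 11.8% at the low dose of Coptidis, against 2.31 to 3.51% in the replicated groups of other extracts, and its part in these differences was not tested.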

How the results depend on the processing

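No member's log2 fold change that was called in the report's fit changed sign under any setting run. One uncalled value did so and passed: PPARA in Bupleuri high against low was 0.03, and −0.22 (edgeR adjusted p 0.00254) without replicate 3 of the low dose. Over these values, DESeq2 put 4 more past the threshold and took 0 below it, its size factors in edgeR took 1 below, no filter on low counts moved 7 past and 17 below, and leaving out single libraries moved 15 past and 54 below in 57 refits. The numbers of members called under the alternatives were as follows. DESeq2 called 1 with the Zizyphi medium dose and 1 with the Citri medium dose, where edgeR called 0. It called 4 with the Cimicifugae high dose and 4 for Aconiti high against low, where edgeR called 3, HADHA being the gene added in both. DESeq2's size factors, and likewise the replicate block, left 1 of 2 for Cimicifugae high against low; the block changed no other call. With no filter, 1 was called for Zizyphi medium (0 with the filter), 0 for Citri high (2), 0 for Citri low (1), 2 for Bupleuri medium (4), 1 for Bupleuri low (2), 0 for Aconiti low (1), 1 for Yijung-tang high (2), 1 for its medium and 1 for its low dose (0 and 0), 3 for Bupleuri high against low (5) and 2 for Yijung-tang high against low (1). No filter also lost HADHA at the low dose of Coptidis (edgeR adjusted p 0.14) and ACADM at the high dose of Aconiti (0.0911). PLIN2 was lost at the high dose of Cimicifugae (edgeR adjusted p 0.0889) and for Cimicifugae against Citri (0.128). Leaving out single libraries gave 4 to 6 for Coptidis medium, 0 to 1 for Zizyphi medium and Cimicifugae medium and low, 1 to 2 for Citri high and low, 2 to 4 for Cimicifugae high and Bupleuri medium, 3 to 4 for Bupleuri high, 1 to 4 for Bupleuri low, 4 to 6 for Aconiti high, 4 to 5 for Aconiti medium, 1 to 3 for Yijung-tang high, Cimicifugae high against low and Cimicifugae against Citri, 4 to 5 for Bupleuri and 3 to 4 for Aconiti high against low. Over all genes, 321 were called for Zizyphi medium by edgeR against 482 by DESeq2 and 588 with no filter, 281 for Yijung-tang low against 538 with no filter, and 1 for Zizyphi high against low against 56. Leaving out single libraries moved the share of all genes called by over 1.5 times in 21 of 29 comparisons. Against vehicle it became 20.6 to 40.3% for Coptidis low, 0.132 to 10.3%, 0.09 to 6.66% and 0.138 to 7.72% for Zizyphi high, medium and low, 7.77 to 22.2%, 3.89 to 18.6% and 7.36 to 24.1% for Citri, 5.61 to 18.9% and 2.38 to 13.1% for Cimicifugae medium and low, 5.96 to 18.2% and 12.3 to 34.2% for Bupleuri medium and low, 5 to 17.6% for Aconiti low, and 8.37 to 24.8%, 1.7 to 12.7% and 0.162 to 4.86% for Yijung-tang. Between high and low dose it became 0 to 0.018% for Zizyphi, 0.384 to 2.14% for Citri, 4.72 to 12.7% for Cimicifugae, 9.66 to 22.1% for Aconiti and 3.51 to 12.1% for Yijung-tang, and 2.63 to 7.53% for Cimicifugae against Citri. The highest share came from leaving out Bupleuri low-dose replicate 3 in all of these except Bupleuri low, where that gave the lowest. Apart from what these settings change by construction (samples or genes tested), the causes were not tested. ANGPTL4, with 8 to 78 counts a library, and PDK4 are limited by depth.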
